A study of Mus musculus with 9 samples.

Results

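The enterocyte brush border was examined through 9 mouse genes, Vil1, Sis, Lct, Alpi, Akp3, Anpep, Dpp4, Mep1a and Treh, chosen by symbol out of 54838 gene identifiers in bulk RNA-seq of intestinal organoids. Each symbol matched 1 Ensembl identifier. The rule that picks them uses no measured value, but the genes were chosen with earlier results of these data known. The organoids came from male Vil-CreERT2;Mettl3 fl/fl mice aged 2 to 4 months, and every group, the controls included, carried these alleles. The villin promoter drives the CreERT2 recombinase in the intestinal epithelium, and 4-hydroxytamoxifen (4-OHT) switches it on so that the floxed part of Mettl3, the m6A methyltransferase gene, is cut out. Organoids received the vehicle EtOH or 500 nM 4-OHT for 2 days, together with DMSO or the RIPK1 inhibitor necrostatin-1 (Nec-1) for 5 days. The Nec-1 dose is 10 µM in the methods and 5 µM in legends of other experiments on such organoids, and the sources give none for the RNA-seq itself. The libraries were 2 of EtOH DMSO, 2 of EtOH Nec-1, 2 of 4-OHT DMSO and 1 of 4-OHT Nec-1. No group without Cre received 4-OHT, and although the study states in general that its experiments had biological replicates, no source used here says whether the libraries of a group came from separate cultures, so p-values measure the spread between these libraries, which may be technical.

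The brush border is the carpet of actin-filled microvilli on the apical face of enterocytes, the absorptive cells of the small intestine. Its membrane carries anchored hydrolases that finish the digestion of sugars and peptides before transporters take up the products, and the microvilli themselves are held by bundling and linking proteins. Lactase is known as a gene of the suckling intestine, while sucrase-isomaltase and trehalase belong to the adult pattern.

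Levels were given as FPKM, fragments per kilobase of transcript scaled to all mapped fragments, so genes can be compared per length. FPKM summed to between 450207 and 498712 per library, 11559 to 12038 genes per library reached 1 FPKM, and relative depth, read from the steps between low values, ran from 0.853 to 1.04 with the first EtOH DMSO library as 1. Fragment counts were not used, so the depth behind a single value is unknown. The epithelial marker Epcam was between 431 and 609 FPKM in all libraries, while the T cell gene Cd3e did not exceed 0.0892 FPKM and the fibroblast gene Col1a1 did not exceed 0.0878 FPKM. Of the immune markers, the myeloid genes Cd68 and Itgam were higher, at up to 7.72 and 2.45 FPKM. Mettl3 was not lower after 4-OHT by its gene-level value. By the limma fit described below, it was higher in 4-OHT DMSO than in EtOH DMSO (log2 fold change 0.41, adjusted p = 0.0231). With median centring the change was 0.25 (adjusted p = 0.0796). Its level was 2.70 and 2.71 FPKM for EtOH DMSO, 2.41 and 2.47 for EtOH Nec-1, 3.72 and 4.14 under 4-OHT DMSO and 3.36 under 4-OHT Nec-1. This gene-level value does not check the deletion of part of a gene, so the directions below rest on the labels.

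Alpi and Akp3 are shown here by their promoters because they are paralogous intestinal alkaline phosphatases that lie side by side on chromosome 1, with 23347 bases between them, and both were lower with 4-OHT while their values with Nec-1 parted. Sis is shown as the most abundant of the hydrolases, and Vil1 as the structural gene that moved the other way and whose promoter drives the recombinase. Each sequence is the RefSeq window from 250 bases before to 50 bases after the start site in GRCm38.p6, on the gene's own strand. Capitals mark matches, on either strand, to TTTAT (core of the CDX factor site), GTTAAT (part of the HNF1 site) and CAAAGTC (part of the HNF4 site), which were searched after the promoters had been read.
Vil1 promoter, chr1:74409134-74409433, plus strand: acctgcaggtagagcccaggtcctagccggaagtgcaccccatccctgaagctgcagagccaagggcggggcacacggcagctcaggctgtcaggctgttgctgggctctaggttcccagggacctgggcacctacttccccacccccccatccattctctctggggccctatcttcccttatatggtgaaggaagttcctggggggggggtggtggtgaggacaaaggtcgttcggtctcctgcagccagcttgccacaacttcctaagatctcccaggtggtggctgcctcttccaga
Sis promoter, chr3:72967814-72968113, minus strand: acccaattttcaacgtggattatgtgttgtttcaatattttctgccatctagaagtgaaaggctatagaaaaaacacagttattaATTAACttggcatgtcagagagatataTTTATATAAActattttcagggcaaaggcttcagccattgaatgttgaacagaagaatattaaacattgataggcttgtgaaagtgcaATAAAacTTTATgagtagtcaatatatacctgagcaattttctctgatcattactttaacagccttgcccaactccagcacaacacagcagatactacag
Alpi promoter, chr1:87101557-87101856, minus strand: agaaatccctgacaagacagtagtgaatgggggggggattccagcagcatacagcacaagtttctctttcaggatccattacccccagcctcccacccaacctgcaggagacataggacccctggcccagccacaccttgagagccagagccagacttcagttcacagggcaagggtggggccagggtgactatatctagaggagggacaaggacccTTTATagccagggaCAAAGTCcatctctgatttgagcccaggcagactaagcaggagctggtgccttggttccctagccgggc
Akp3 promoter, chr1:87124704-87125003, plus strand: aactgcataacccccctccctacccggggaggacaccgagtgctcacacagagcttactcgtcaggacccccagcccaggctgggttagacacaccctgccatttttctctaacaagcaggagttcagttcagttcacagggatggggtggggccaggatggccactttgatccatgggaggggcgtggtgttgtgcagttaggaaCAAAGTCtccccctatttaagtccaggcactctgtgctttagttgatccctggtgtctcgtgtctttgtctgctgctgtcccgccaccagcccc

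The CAAAGTC match lay 19 to 13 bases before the start of Alpi (-19 to -13) and 44 to 38 bases before that of Akp3 (-44 to -38). These letters were in 4.44% of 32851 promoters of the same length, and 3 of the 9 brush border genes had them, the third being Treh with 2 matches. TTTAT was in the windows of 5 of the 9 genes (Sis, Lct, Alpi, Dpp4 and Mep1a) and in 40.0% of all promoters. None of its 4 matches in Sis overlaps the single GTTAAT match at -165 to -160. The Mep1a window, chr17:43502724-43503023 on the minus strand, lay wholly inside the gene coordinates given below. Its match was after the start site used, at positions 14 to 18. GTTAAT was in 7.1% of all promoters. None of these exact letters was in the windows of Vil1 or Anpep. Other forms of the CDX, HNF1 and HNF4 sites were not searched, so absence of the letters does not mean absence of a site. In a global alignment with gaps, the windows of Alpi and Akp3 shared 63.7% of their bases, against 50.3% to 62.0% for the other pairs among 36. Because the letters were searched after the promoters had been read, the shares over all promoters are a description and no test. A match of letters likewise says nothing of whether a factor was bound.

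The genes spanned a wide range of levels in control organoids. In EtOH DMSO, the mean FPKM of Sis exceeded that of 98.3% of the 12702 genes tested, Vil1 exceeded 95.9% and Alpi 94.3%. Dpp4 and Anpep were in the middle, above 80.3% and 79.5% of genes, and their order differed between the EtOH DMSO libraries. Treh exceeded 66.5%, Akp3 63.0% and Mep1a 58.7%, while Lct exceeded 0.874%. Sis was the highest of the 9 in all 4 EtOH libraries and Vil1 the highest in all 3 libraries with 4-OHT, whereas Lct was the lowest in all 7. Summed over the 9 genes, FPKM was 519 and 570 for EtOH DMSO, 553 and 553 for EtOH Nec-1, 343 and 374 under 4-OHT DMSO and 413 under 4-OHT Nec-1. In bulk organoids, fewer enterocytes and less RNA per enterocyte cannot be told apart.

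**Figure D1:**
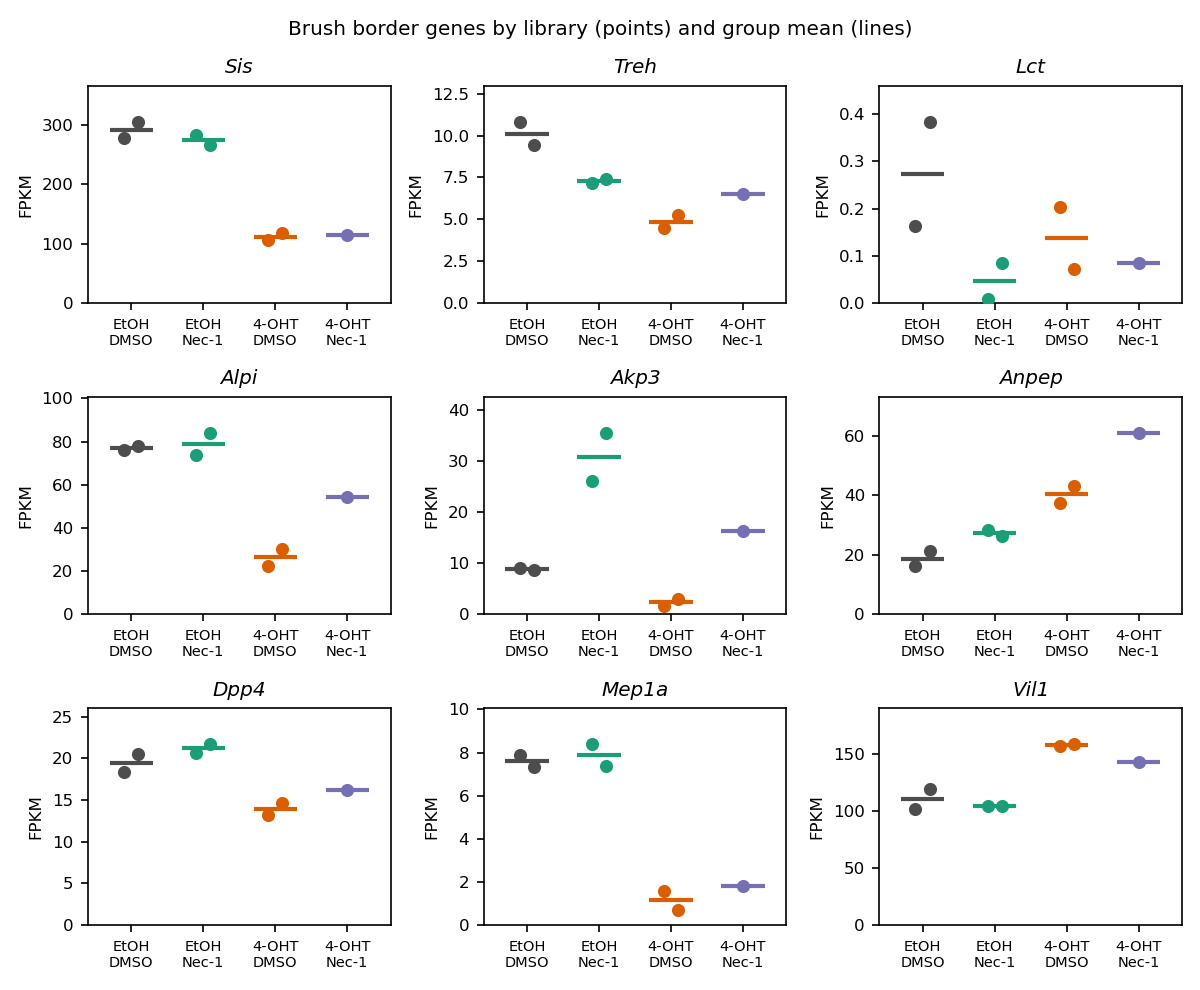
FPKM of the 9 brush border genes (vertical axes from 0, a scale for each gene) in the 4 groups, with a point for each library and a line at each group mean. Sis, Alpi, Akp3, Mep1a, Treh and Dpp4 were lower in both 4-OHT DMSO libraries than in both EtOH DMSO libraries, Vil1 and Anpep were higher, and Lct stayed under 0.4 FPKM throughout. The share of all genes whose libraries separate in this way is not given, here or where single genes are described below.

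The disaccharidases came first. Sis (ENSMUSG00000027790, chr3:72888557-72967863 in GRCm38.p6), which splits sucrose and isomaltose, was at 279 and 305 FPKM for EtOH DMSO, 284 and 266 for EtOH Nec-1, 106 and 118 under 4-OHT DMSO and 114 under 4-OHT Nec-1. The 4-OHT libraries, 3 in all, lay together and far below the 4 EtOH libraries. Treh (ENSMUSG00000032098, chr9:44673233-44686305), which splits trehalose, was at 10.8 and 9.41 FPKM for EtOH DMSO, 7.17 and 7.38 for EtOH Nec-1, 4.48 and 5.23 under 4-OHT DMSO and 6.53 under 4-OHT Nec-1. Its groups did not overlap, with EtOH DMSO highest and 4-OHT DMSO lowest. Lct (ENSMUSG00000026354, chr1:128284756-128328318), lactase, was at 0.164 and 0.383 FPKM for EtOH DMSO, 0.0092 and 0.0849 for EtOH Nec-1, 0.204 and 0.0716 under 4-OHT DMSO and 0.0837 under 4-OHT Nec-1. It was near 0 in every library, overlapped between EtOH DMSO and 4-OHT DMSO, and was not tested because it reached 1 FPKM in no library.

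The alkaline phosphatases remove phosphate from luminal molecules, bacterial lipopolysaccharide among them. Alpi (ENSMUSG00000079440, chr1:87098002-87101606) was at 76.0 and 78.1 FPKM for EtOH DMSO, 73.6 and 83.9 for EtOH Nec-1, 22.3 and 30.3 under 4-OHT DMSO and 54.2 under 4-OHT Nec-1. Both 4-OHT DMSO libraries were far below all others, and the 4-OHT Nec-1 library lay between them and the EtOH libraries. Akp3 (ENSMUSG00000036500, chr1:87124954-87128728) was at 8.99 and 8.69 FPKM for EtOH DMSO, 26.2 and 35.5 for EtOH Nec-1, 1.63 and 3.01 under 4-OHT DMSO and 16.3 under 4-OHT Nec-1. All 3 Nec-1 libraries exceeded all 4 DMSO libraries. Because Alpi, Akp3 and the related Alppl2 are similar in sequence, reads could be split between them, and how the counting assigned such reads is not given in the sources used here.

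The peptidases diverged. Anpep (ENSMUSG00000039062, chr7:79821803-79848210), aminopeptidase N, was at 16.0 and 21.1 FPKM for EtOH DMSO, 28.4 and 26.2 for EtOH Nec-1, 37.4 and 43.0 under 4-OHT DMSO and 60.8 under 4-OHT Nec-1. It was lowest in EtOH DMSO and highest in the 4-OHT Nec-1 library, with no overlap between groups. Dpp4 (ENSMUSG00000035000, chr2:62330073-62412315), the dipeptidyl peptidase that also inactivates incretin hormones, was at 18.4 and 20.5 FPKM for EtOH DMSO, 20.7 and 21.7 for EtOH Nec-1, 13.2 and 14.7 under 4-OHT DMSO and 16.2 under 4-OHT Nec-1. All 4-OHT libraries were below all EtOH libraries, by a smaller distance than for Sis. Mep1a (ENSMUSG00000023914, chr17:43474324-43504143), the alpha subunit of the metalloprotease meprin, was at 7.87 and 7.33 FPKM for EtOH DMSO, 8.39 and 7.36 for EtOH Nec-1, 1.60 and 0.681 under 4-OHT DMSO and 1.83 under 4-OHT Nec-1. The 4-OHT libraries were low throughout, and 1 of them fell under 1 FPKM.

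Vil1 (ENSMUSG00000026175, chr1:74409384-74435560), the actin-bundling protein villin of the microvillus core, was at 102 and 120 FPKM for EtOH DMSO, 105 and 105 for EtOH Nec-1, 157 and 159 under 4-OHT DMSO and 143 under 4-OHT Nec-1. All 3 libraries with 4-OHT exceeded all 4 EtOH libraries.

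The first comparison asked how the 4-OHT organoids differed from the EtOH organoids without inhibitor (2 libraries each). Most of the hydrolases were lower in 4-OHT DMSO: Sis, Alpi, Akp3 and Mep1a fell most, Treh and Dpp4 fell less, while villin and aminopeptidase N rose. By limma on log2(FPKM + 1) with Benjamini-Hochberg adjustment over 12702 genes, 2 of the 8 genes tested were higher and 6 were lower at an adjusted p under 0.05, where 24.5% of all genes tested were higher and 16.7% lower. The median log2 fold change was -1.15 over the 8 genes and 0.077 over all genes. Of the 8, 7 reached 1 FPKM in every library. Median centring shifted all genes to a median of -0.08, with 2213 higher and 3187 lower in place of 3117 and 2120, and left the 8 genes with 2 higher and 6 lower.

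Mep1a had a log2 fold change of -2.04 (SE 0.22, adjusted p = 0.00199). Akp3 followed at -1.60 (SE 0.24, adjusted p = 0.00514), then Alpi at -1.53 (SE 0.16, adjusted p = 0.00178) and Sis at -1.37 (SE 0.098, adjusted p = 0.000699). The 4 largest falls were thus in a sugar hydrolase, both phosphatases and a protease subunit. On the FPKM + 1 scale, Sis was at 0.386 times its control level and Alpi at 0.346 times. Treh changed by -0.92 (SE 0.11, adjusted p = 0.00285). Dpp4 changed by -0.45 (SE 0.097, adjusted p = 0.0162), and its adjusted p was 0.0515 when 4-OHT DMSO library 1 was left out and 0.0628 when EtOH DMSO library 2 was. In the other direction, Anpep rose by 1.08 (SE 0.15, adjusted p = 0.00426) and Vil1 by 0.51 (SE 0.098, adjusted p = 0.0119). These log2 values understate the change of genes near 1 FPKM, such as Mep1a and Akp3, because of the pseudocount.

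**Figure D2:**
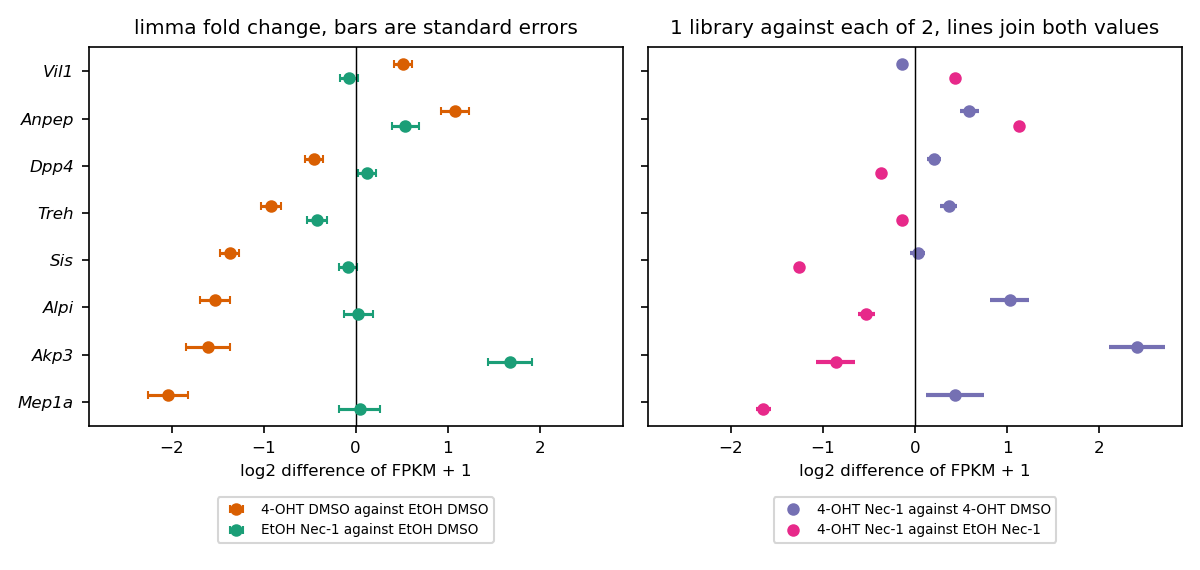
Log2 differences of FPKM + 1 (horizontal axis) for the 8 brush border genes tested. The left panel shows limma fold changes with standard errors against the shared EtOH DMSO libraries, from -2.04 for Mep1a to 1.08 for Anpep in 4-OHT DMSO and with Akp3 at 1.68 in EtOH Nec-1. The right panel shows the 4-OHT Nec-1 library against the mean of 4-OHT DMSO and that of EtOH Nec-1. Lines join its differences from both libraries of a group, and Akp3 reached 2.41 against 4-OHT DMSO.

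Other brush border hydrolases were mostly lower too. In a list of 23, 13 were tested, of which 1 was higher, 8 were lower and 4 did not pass, with a median log2 fold change of -0.66. Over all genes tested, 24.5% were higher and 16.7% lower. Enpep, aminopeptidase A, fell from 32.1 and 36.0 FPKM to 8.37 and 7.91 (log2 fold change -1.94, adjusted p = 0.000376), opposite to aminopeptidase N. Mme, neprilysin, fell by 1.45 and Ggt1, a gamma-glutamyltransferase, by 1.25 on the log2 scale (adjusted p = 0.000872 and 0.000506). Mgam, maltase-glucoamylase, fell from 77.3 and 96.9 FPKM to 44.7 and 60.6 (log2 fold change -0.72, adjusted p = 0.0256). The share of Sis in the FPKM of Sis and Mgam together was 78.3% and 75.9% in EtOH DMSO and 70.3% and 66.1% in 4-OHT DMSO.

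The subunits of meprin parted. Mep1b, which encodes the beta subunit and pairs with the alpha subunit at the membrane, was at 14.8 and 13.1 FPKM in EtOH DMSO and rose to 27.1 and 24.9 in 4-OHT DMSO (log2 fold change 0.85, adjusted p = 0.0043). Mep1a made up 34.7% and 35.9% of the FPKM of both subunits for EtOH DMSO, 33.6% and 34.7% for EtOH Nec-1, 5.59% and 2.66% under 4-OHT DMSO and 7.16% under 4-OHT Nec-1. All 4-OHT libraries were thus far below all EtOH libraries in this share, whichever inhibitor treatment they had.

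Structural genes of the microvillus split in direction. Of 30 listed, 29 were tested, of which 11 were higher, 6 lower and 12 did not pass, beside 24.5% higher and 16.7% lower over all genes. The median of 0.10 was near that of all genes. With median centring the split was 9 higher and 9 lower, with a median of -0.054, beside 2213 higher and 3187 lower of all 12702 genes. The beta and gamma actins Actb and Actg1 rose by 1.23 and 1.16 on the log2 scale (adjusted p = 0.00072 and 0.000945), and the kidney and intestine membrane protein Tmigd1 rose by 1.22 (adjusted p = 0.00158). Calml4, a calmodulin-like light chain of the intermicrovillar adhesion complex, fell from 63.4 and 63.9 FPKM to 21.8 and 26.1 (log2 fold change -1.38, adjusted p = 0.000945). In the same complex the protocadherin Cdhr5 rose by 1.03 (adjusted p = 0.00126), the scaffold Ush1c had -0.41 (adjusted p = 0.0408) and the protocadherin Cdhr2 had 0.098 (adjusted p = 0.534).

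Of the 3 membrane mucins tested out of 5 listed, 2 were higher and none was lower, beside 24.5% higher and 16.7% lower over all genes. Muc3, a mucin of the glycocalyx, rose from 22.8 and 25.4 FPKM to 213 and 292 (log2 fold change 3.32, adjusted p = 0.000507). Muc4 rose from 0.773 and 0.948 FPKM to 5.62 and 5.26 (log2 fold change 1.79, adjusted p = 0.000522). Muc13 had a log2 fold change of 0.22 (adjusted p = 0.117).

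Among 17 absorptive transporters tested of 19 listed, 2 were higher, 8 lower and 7 did not pass, with a median of -0.40. For this list and the next, the shares over all genes tested were 24.5% higher and 16.7% lower. The carriers of fructose and glucose Slc2a5 and Slc2a2 fell by 1.85 and 1.80 on the log2 scale (adjusted p = 0.000425 and 0.00038). The amino acid carriers Slc6a20a and Slc1a1 fell by 1.69 and 1.37 (adjusted p = 0.00118 and 0.00113). In the list of 12 cytosolic and lipid genes of enterocytes, 2 were higher, 5 lower and 5 did not pass, with a median of -0.35. The fructose kinase Khk fell by 2.79 on the log2 scale (adjusted p = 0.000419), the retinol binding protein Rbp2 fell by 0.88 (adjusted p = 0.00248), and adenosine deaminase Ada rose by 1.18 (adjusted p = 0.00574). Slc3a1, a carrier subunit that stood in both the hydrolase and the transporter list, had 0.024 (adjusted p = 0.817).

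Log2 fold changes of transcription factors known to act on brush border genes lay between -0.52 and 0.36. Of 16 listed, 15 were tested, with 3 higher, 3 lower and 9 not passing, and a median of -0.012, beside 24.5% higher and 16.7% lower over all genes. With median centring 0 were higher and 6 lower, beside 2213 and 3187 of all 12702 genes. Gata4, Gata5 and Gata6 had log2 fold changes of -0.52, -0.48 and -0.44 (adjusted p = 0.0105, 0.0292 and 0.0297), and Elf3 had 0.36 (adjusted p = 0.0216), a rise that did not hold with median centring. Hnf4a had -0.22 (adjusted p = 0.149) and Cdx2 -0.22 (adjusted p = 0.078). Both passed as lower with median centring, each at -0.38 (adjusted p = 0.0284 and 0.0165), so their call depends on the scaling. Among genes of the suckling enterocyte, 4 of 8 were tested, with 2 higher, 1 lower and a median of 0.48. Ass1, which makes argininosuccinate, rose from 3.06 and 3.03 FPKM to 7.05 and 5.65 (adjusted p = 0.00882), Ctsl, a lysosomal protease, had 0.58 (adjusted p = 0.0118), and Amn, part of the cubilin receptor, had -0.78 (adjusted p = 0.0028).

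**Figure D3:**
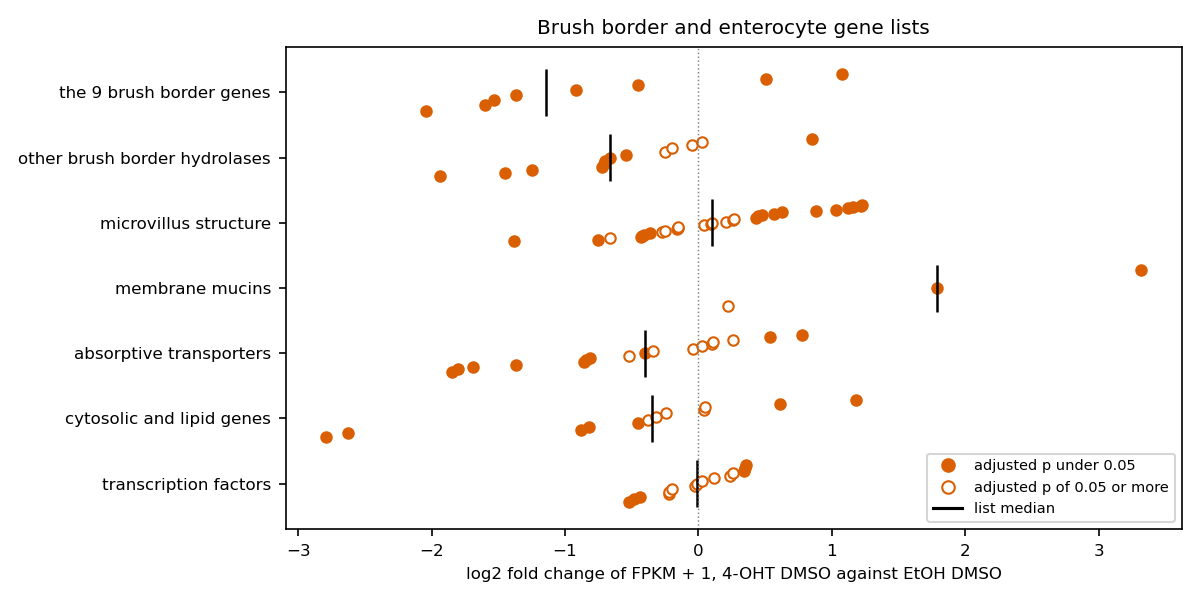
Log2 fold change of FPKM + 1 in 4-OHT DMSO against EtOH DMSO (horizontal axis) for each gene tested in 7 lists, with filled points at an adjusted p under 0.05 and a bar at each list median. The medians ran from -1.15 for the 9 brush border genes, of which 8 are plotted, to 1.79 for the membrane mucins.

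Markers of secretory cells moved with the same comparison, and their part in the result was not tested. The marker counts below stand beside 24.5% higher and 16.7% lower over all genes tested. Paneth cell markers, summed over 11 genes, were at 7870 to 8690 FPKM in EtOH DMSO and 20900 to 21300 in 4-OHT DMSO, with 8 of 11 higher and 0 lower. The largest rises among them were those of Mmp7 (2.36), Ang4 (2.20), Pla2g2a (1.84) and Defa22 (1.79), all genes of Paneth cell granules, given as log2 fold changes. Goblet cell markers (9 genes) were at 1970 to 2170 and 3290 to 3840 FPKM, with 7 of 9 higher, led by Clca1 (2.14), Zg16 (2.09), Muc2 (1.18) and Agr2 (1.10). Enteroendocrine markers (10 genes) were at 421 to 431 and 926 to 1060 FPKM, with 9 of 9 tested higher, led by Gip (1.48), Cck (1.21), Chga (1.18) and Chgb (1.03). All 3 secretory classes thus stood higher in both 4-OHT DMSO libraries. Stem cell markers (8 genes) were at 90.0 to 90.7 and 56.9 to 84.1 FPKM, with 3 of 7 tested lower (Smoc2 -1.30, Olfm4 -0.87 and Lgr5 -0.65). Proliferation markers were at 197 to 210 and 164 to 188 FPKM, with Birc5 higher (0.54) and Pcna (-0.49) and Top2a (-0.46) lower among 8. Tuft cell markers were at 7.83 to 8.59 and 7.02 to 8.76 FPKM and overlapped, with 1 of 3 tested past the threshold (Avil, 0.52), or 0 with median centring. Of 7 epithelial markers 5 were higher, led by Cdh1 (0.66) and Krt20 (0.63), or 2 with median centring. That setting also left 5 goblet markers higher in place of 7 and 4 stem cell markers lower in place of 3. Counts with median centring stand instead beside 2213 higher and 3187 lower of all 12702 genes. Summed immune markers did not exceed 8.69 FPKM and summed fibroblast markers 1.15 FPKM in any library. The 2 immune markers tested went in opposite directions. Cd68, a gene of macrophage lysosomes, rose by 1.73 (adjusted p = 0.00689 by limma). Itgam had -0.68 (adjusted p = 0.0786), or -0.84 with median centring (adjusted p = 0.049).

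**Figure D4:**
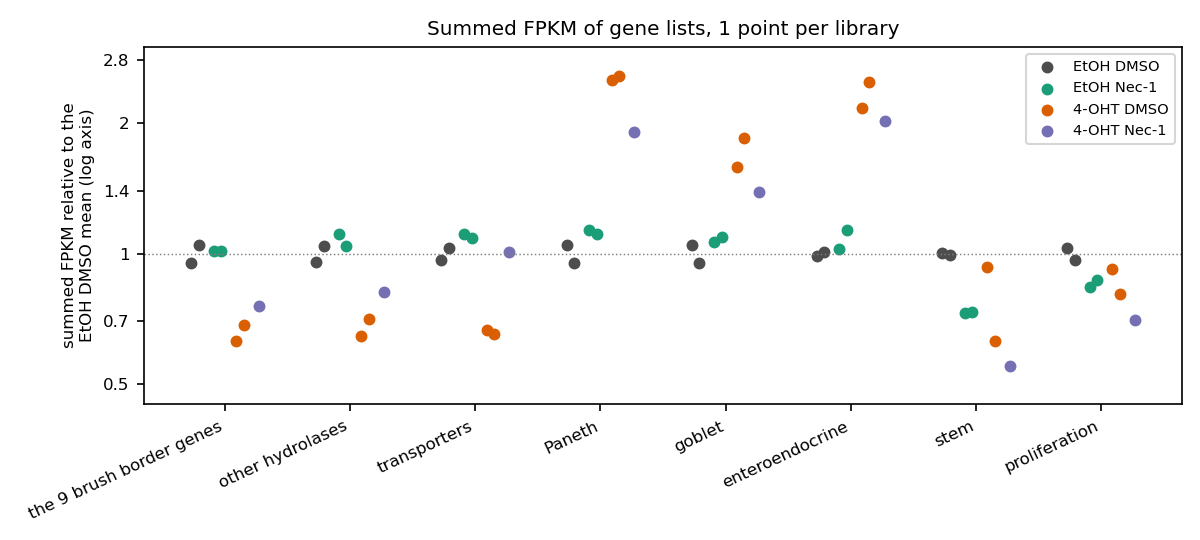
Summed FPKM of 8 gene lists in each library, relative to the mean of the EtOH DMSO libraries (vertical log axis), with a point for each library coloured by group. The sum of the 9 brush border genes was 343 and 374 FPKM in 4-OHT DMSO against 519 and 570 in EtOH DMSO, while Paneth, goblet and enteroendocrine markers lay above their EtOH DMSO levels.

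The second comparison asked what Nec-1 did in EtOH organoids (2 libraries each), and it shares the EtOH DMSO libraries with the first. Akp3 had the largest difference of the 8 genes, 1.68 on the log2 scale (SE 0.24), while Sis, Alpi, Mep1a and Vil1 differed by less than 0.1. By limma 0 of the 8 were higher and 0 lower at an adjusted p under 0.05, where 0.173% of all genes tested were higher and 0.0472% lower. At an unadjusted p under 0.05 there were 3, Akp3 and Anpep higher and Treh lower, where 2.92% of all genes tested were higher and 10.4% lower at that threshold, and no other tool was run. Akp3 had an unadjusted p of 0.000583 and an adjusted p of 0.106. By limma its adjusted p was 0.0280 in a fit of only these 4 libraries, but 0.0941 with median centring and 0.252 with no filter. Its log2 difference was 1.70 without the first EtOH DMSO library and 1.66 without the second. It was 1.89 without the first EtOH Nec-1 library and 1.47 without the second.

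Anpep differed by 0.54 (adjusted p = 0.282) and Treh by -0.42 (adjusted p = 0.264). The median over the 8 genes was 0.036, against -0.094 over all genes. Sis had -0.085 (SE 0.098), Vil1 -0.075 (SE 0.098), Mep1a 0.043 (SE 0.22), Alpi 0.029 (SE 0.16) and Dpp4 0.12 (SE 0.097), all with adjusted p between 0.621 and 0.963. The signs of Sis and Vil1 turned with median centring, to 0.014 and 0.024.

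Of the other lists, the cytosolic and lipid genes alone held genes past the threshold in EtOH Nec-1, 1 higher and 2 lower of 12. Cyp3a11, a cytochrome P450 that oxidises many drugs, rose from 2.55 and 1.99 FPKM to 25.9 and 24.7 (log2 fold change 3.01, adjusted p = 0.000846). Apoa4 and Apoc3, apolipoproteins of the particles that carry dietary fat, fell by 1.62 and 1.50 on the log2 scale (adjusted p = 0.0102 and 0.0323). With median centring 1 gene of this list was lower in place of 2. In the hydrolase, structure, mucin, transporter and transcription factor lists 0 genes passed in either direction.

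The neighbouring alkaline phosphatases differed in their share between treatments. Akp3 made up 10.6% and 10.02% of the FPKM of Akp3 and Alpi together for EtOH DMSO, 26.2% and 29.7% for EtOH Nec-1, 6.81% and 9.03% under 4-OHT DMSO and 23.1% under 4-OHT Nec-1. The 3 Nec-1 libraries all exceeded the 4 DMSO libraries in this share. The sum of both was 84.9 and 86.8 FPKM for EtOH DMSO, 99.8 and 119 for EtOH Nec-1, 23.9 and 33.3 under 4-OHT DMSO and 70.5 under 4-OHT Nec-1. With reads possibly split between these paralogs the share is uncertain. Alppl2, the third relative, was at 4.65 and 3.98 FPKM for EtOH DMSO, 3.44 and 2.46 for EtOH Nec-1, 2.66 and 4.47 under 4-OHT DMSO and 6.24 under 4-OHT Nec-1. The 4-OHT Nec-1 library was the highest, EtOH DMSO lay above EtOH Nec-1, and 4-OHT DMSO overlapped with both EtOH groups.

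**Figure D5:**
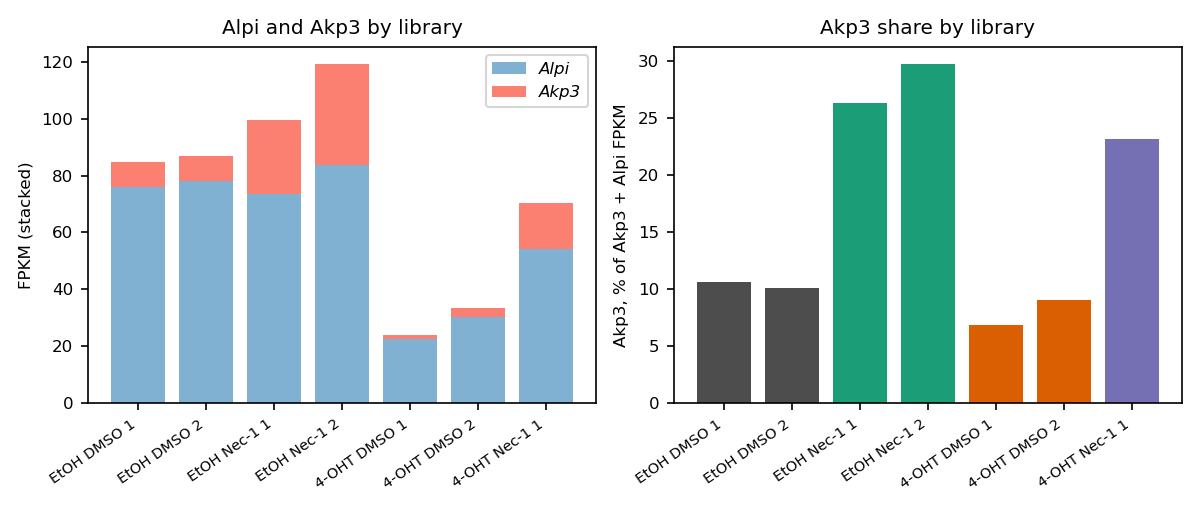
Left, stacked FPKM of Alpi and Akp3 in each library. Right, the share of Akp3 in the FPKM of both in percent, coloured by group, which lay between 23.1% and 29.7% in the 3 Nec-1 libraries and between 6.81% and 10.6% in the 4 DMSO libraries.

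The third comparison asked what Nec-1 did in 4-OHT organoids, and it rests on 1 library of 4-OHT Nec-1, so there was no replicate check and no test was made. A gene was counted when the library lay at least 1 log2 unit above, or below, each 4-OHT DMSO library. Akp3 was counted above, at a difference of 2.41 from the mean and 2.11 to 2.72 from the single libraries, and no brush border gene was counted below. Among the 12036 genes compared, 0.764% lay above and 1.21% below. Alpi differed by 1.03, and by 0.82 to 1.24 from the single libraries, so it missed the count through the second 4-OHT DMSO library and would enter it without that library. Anpep differed by 0.59 (0.49 to 0.69), Mep1a by 0.43 (0.12 to 0.75) and Treh by 0.37 (0.27 to 0.46).

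Sis hardly differed, at 0.03 (-0.051 to 0.11), and Vil1 was slightly lower at -0.14 (-0.15 to -0.13). The median over the 8 genes was 0.40, against -0.089 over all genes. The other hydrolases had a median of 0.54 with 0 of 11 counted, or 1 with median centring. The transporters had a median of 0.56 with 3 of 17 counted above, among them the drug efflux pump Abcb1a at 1.63 and the sodium-proton exchanger Slc9a3 at 1.16. Muc3 was counted below at -1.76, with 73.2 FPKM in 4-OHT Nec-1. In the cytosolic and lipid list Cyp3a11 was counted above at 3.41 and Apoa4 below at -1.33. The summed Paneth markers were 15800 FPKM in this library, the goblet markers 2880 and the enteroendocrine markers 862, each below both 4-OHT DMSO libraries, and the part of these cells in the differences was not tested.

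The fourth comparison set the same 4-OHT Nec-1 library against the EtOH Nec-1 libraries, again without a test. Anpep was counted above, at a difference of 1.13, and Sis and Mep1a below, at -1.26 and -1.65. Among the 11746 genes compared, 4.24% lay above and 1.94% below. With median centring Anpep was at 0.99 and no longer counted. Akp3 differed by -0.86, Alpi by -0.53, Vil1 by 0.44, Dpp4 by -0.37 and Treh by -0.14. The median over the 8 genes was -0.45, against 0.067 over all genes. The secretory markers moved here too: summed FPKM was 15800 in the 4-OHT Nec-1 library against 9190 to 9410 in EtOH Nec-1 for Paneth cells, 2880 against 2200 to 2260 for goblet cells and 862 against 438 to 483 for enteroendocrine cells. Of these markers 4 of 11 Paneth, 2 of 9 goblet and 0 of 9 enteroendocrine genes were counted above, and their part in the differences was not tested.

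Set side by side, 4-OHT against EtOH gave Sis -1.37 with DMSO and -1.26 with Nec-1, Mep1a -2.04 and -1.65, and Anpep 1.08 and 1.13. For Alpi the values were -1.53 and -0.53, for Akp3 -1.60 and -0.86, and for Treh -0.92 and -0.14. These differences between inhibitor treatments were not tested. In the other lists the genes past 1 log2 unit included Enpep at -1.32 and Ggt1 at -1.19 among hydrolases, Actg1 at 1.36 and Calml4 at -1.30 among structural genes, Muc3 at 1.64 and Muc4 at 1.56 among mucins, Slc6a20a at -1.28 and Slc2a2 at -1.19 among transporters, and Khk at -2.01 among cytosolic genes.

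Over the 7 libraries, which share their groups and therefore their treatments, Pearson's r on log2(FPKM + 1) is given as a description. Sis and Mep1a had r of 0.96, Alpi and Dpp4 0.95, and Alpi and Akp3 0.85. Vil1 was opposed to Mep1a, with r of -0.96, and to Sis, with -0.93, and it went with Anpep at 0.77. Akp3 and Anpep had r of -0.18. Of all genes tested other than the 9, those most like Vil1 were Fam120b (r of 0.997), Capn5 and Capn2, and those most like Sis were Gm43697 (0.998), Seh1l and Sacm1l. The genes most like Alpi were Slc22a13b-ps (0.997), Kyat1 and Pbld2, and those most like Akp3 were Fth1 (0.995), Gstm2 and Maoa. Gstm2 was at 77.5 and 81.1 FPKM for EtOH DMSO, 193 and 192 for EtOH Nec-1, 33.8 and 40.7 under 4-OHT DMSO and 116 under 4-OHT Nec-1, the same order of groups as Akp3. Anpep was followed by Ildr1 (0.988), Ano10 and Syt13, Dpp4 by Pstpip2 (0.991), Gm14305 and Sugct, Mep1a by Ppme1 (0.997) and Creld1, and Treh by Lamp1 (0.990), Ltbr and Engase.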

How the data were processed

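RNA-seq was available for 7 libraries in 4 groups, and the study's CUT&Tag samples (2) were not analysed here. The authors deposited FPKM, 1 value per Ensembl gene and library. The submitters' processing notes name mm10, HISAT2 2.1.0 and StringTie 1.3.3b, with no role or settings given. Columns were mapped to libraries by name (0 unmapped), and 2 columns repeated other libraries to within 5e-06 FPKM.

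Genes reaching 1 FPKM in 2 or more libraries (12702) were fitted with limma 3.58.1 (R 4.3.3, mean-variance trend) on log2(FPKM + 1), with 1 mean for each of the 4 groups, 3 residual degrees of freedom, and Benjamini-Hochberg adjustment at 0.05. Comparisons with the single 4-OHT Nec-1 library had no test and covered genes averaging 1 FPKM or more over their 3 libraries. Genes named are the 9 brush border genes, up to 4 genes per list with the largest changes past the threshold in 4-OHT DMSO, every listed gene past it in EtOH Nec-1, up to 2 per list past 1 log2 unit in the comparisons with 4-OHT Nec-1, the 3 genes most like each brush border gene, and Mettl3. Some genes that this rule names are not reported here. Mgam, Mep1b, Alppl2, Slc3a1, Muc13, Cdhr5, Cdhr2, Ush1c, Hnf4a, Cdx2, Epcam, Cd3e, Itgam and Col1a1 were added after their values were seen. The genes and lists were chosen with earlier results of these data known. Coordinates and promoters are from RefSeq (GRCm38.p6), where all 9 genes matched. Python 3.11.15 and pandas 2.3.3 were used. No source used here says whether same-numbered libraries were prepared together, and the main fit did not pair them. The alternatives were other scalings, filters, pseudocounts and criteria, a fit of only 4 libraries, the replicate block, and each library left out.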

Additional observations from a re-analysis of the deposited data

Results flagged for a closer look

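Treh met the rule for effects that oppose each other between groups. Nec-1 went with a log2 difference of -0.42 in EtOH organoids, where both Nec-1 libraries were below both DMSO libraries, and of 0.37 in 4-OHT organoids, where the Nec-1 library was above both DMSO libraries. The first value had an adjusted p of 0.264 by limma, the second rests on 1 library, and the difference between them was not tested.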

How the results depend on the processing

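In 4-OHT DMSO against EtOH DMSO, 125 of 127 alternative values of the brush border genes kept direction and side of the threshold, and the other 2 were those of Dpp4 given above. Here and for EtOH Nec-1, direction was fixed in settings that leave the group means unchanged. Examples are limma without the trend, other filters and the fit of only 4 libraries, where only the side of the threshold could move. The count of higher genes was 1 in place of 2 (Vil1 under 1 log2 unit) with a fold threshold beside the adjusted p. It was also 1 with the study's criterion of unadjusted p and fold. Both settings left 4 lower genes in place of 6, without Treh and Dpp4. The share of all genes called under these criteria is not given, here or for EtOH Nec-1. With a library left out, the 8 genes tested kept their direction, and Dpp4 lay between -0.53 and -0.38. In EtOH Nec-1 against EtOH DMSO, 116 of 127 values kept both, and the count of higher genes was 1 (Akp3) with only the 4 libraries and with the study's criterion, and 0 to 1 when a library was left out. Small differences there changed sign: Vil1 to 0.024 and Sis to 0.014 with median centring, Vil1 to 0.031 and Sis to 0.022 with upper quartile scaling, and when a library was left out Vil1 ranged from -0.19 to 0.039 (0.039 without the second EtOH DMSO library), Mep1a from -0.041 (without the first EtOH Nec-1 library) to 0.13, and Alpi from -0.064 (without the second EtOH Nec-1 library) to 0.12. Over all genes, the 22 higher and 6 lower of this comparison became 59 and 20 with only the 4 libraries and 6 and 2 without the filter, 37 and 6 with upper quartile scaling, and 5 to 57 and 2 to 18 when a library was left out, with 57 and 18 without either 4-OHT DMSO library. Against 4-OHT DMSO, the 4-OHT Nec-1 library counted 1 to 2 genes when a library was left out, with Alpi added as the 2nd, and against EtOH Nec-1 it counted 3 to 4. The cause of these changes was not tested. With the replicate number as a block, 2 brush border genes were higher and 6 lower in 4-OHT DMSO, where all genes gave 2779 and 1911. In EtOH Nec-1 the counts were 0 and 0, where all genes gave 15 and 4. The deviations of same-numbered libraries correlated at -0.04 to 0.006, which does not tell whether those libraries were prepared together. FPKM keep no fragment counts, so the counting error of low genes such as Lct and Mep1a is unknown.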
